A study of Mus musculus with 22 samples.

Results

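Rab GTPases are small membrane proteins that each mark a compartment of the cell and steer the vesicles that leave or reach it. The Rab genes described here are the symbols made of Rab, a number and at most a letter and a digit after it, so that effectors and regulators with Rab in their names stay out. The rule gave 59 of the 24982 genes counted, and 58 of the 59 had at least 1 count in the 22 libraries. Of these, 49 passed a filter on low counts and were tested together with the other genes, 12387 in all. The 10 that did not pass were Rab15, at 0 counts, and Rab30, Rab33a, Rab34, Rab39b, Rab3b, Rab3c, Rab40b, Rab42 and Rab9b, of which Rab33a had the most (78 counts in all libraries together). All 59 are protein-coding genes in the GENCODE vM21 annotation of GRCm38, the assembly also called mm10.

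The libraries were made from bone marrow of wild-type C57BL/6 mice. Each mouse had been given 400 ng of recombinant IL-33 into the peritoneum every day for 7 days, a treatment that raises eosinophil numbers, and then 400 µg of anti-IL5 or of an isotype control antibody on each of 3 days from the last IL-33 dose on. The isotype groups are therefore IL-33-treated mice too, and mice without IL-33 were not analysed here. Marrow was depleted of cells stained for Ly6G, CD90.2, NK1.1 or CD45R, and 4 successive maturation stages, I to IV, were sorted by the surface markers CD117, CD200R3, CD29, PIR-A/B, CD55, Siglec-F and F4/80 with a purity of 95% or more. The 8 groups hold 3 libraries each, and 2 at stage II. The labels give neither the ages of the mice nor whether a library comes from 1 mouse or a pool, so p-values measure the spread between these samples, which may be technical.

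In the Rab cycle, a guanine nucleotide exchange factor (GEF) loads the Rab with GTP on its membrane, the GTP-bound form recruits effectors such as tethers and motors, and a GTPase-activating protein (GAP) ends the signal, after which a GDP dissociation inhibitor (GDI) takes the Rab off the membrane. Different Rabs serve the steps from endoplasmic reticulum and Golgi through endosomes and lysosomes to the plasma membrane. Granulocytes are known for Rab27a, which docks secretory granules at the plasma membrane, and eosinophils store their cationic proteins in such granules.

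Library totals lay between 7161264 and 14781250 gene counts, which puts 3 counts at 0.222 to 0.411 CPM. Eosinophil markers were present in every library, with a summed level of 43650 to 50780 CPM at stage I and 10740 to 12120 CPM at stage IV under isotype, and Siglecf rose from stage I to IV (log2 1.35 ± 0.14) while the granule protein genes Epx, Prg2 and Prg3 fell. Markers of other cells moved with the stages as well, and not all of them downwards. The monocyte and macrophage list (6 genes) summed to 653.2 to 1118 CPM at isotype stage I, 1693 to 2911 at stage III and 1036 to 2057 at stage IV. The basophil and mast cell list (8 genes) summed to 2635 to 3326 CPM at isotype stage I and 295.4 to 372.1 CPM at stage IV, and the neutrophil list (10 genes) to 5261 to 7194 and 311.9 to 494.5 CPM. The T and NK cell list (7 genes) summed to 876.5 to 1232 CPM at isotype stage I and 2.12 to 3.06 CPM at stage IV, and at stage III to 86.4 to 220.5 CPM under isotype against 16.7 to 19.7 CPM under anti-IL5. Nkg7 made up nearly all of these sums at stages I to III, and Cd3e and Gata3 were at 0 in every group but anti-IL5 stage III. The erythroid list (6 genes) summed to 22.9 to 28.2 CPM at isotype stage I and 3.57 to 6.65 CPM at stage IV, with the 3 haemoglobin genes at 0 in every group. In sorted bulk RNA, fewer cells that express a gene and less of its RNA per cell cannot be told apart.

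Levels below are CPM, a gene's counts relative to the library total scaled by its TMM factor, given per library in replicate order or as mean ± SD. A value after "log2" is a log2 fold change ± SE from 1 edgeR quasi-likelihood model of all libraries. A call is an edgeR p-value under 0.05 after Benjamini-Hochberg adjustment over the 12387 genes, and "rose", "fell", "higher" and "lower" of a gene mean a call. Where omitting a single library ended a call, square brackets hold the highest adjusted p among those fits and the libraries whose omission ended it, written as treatment, stage and replicate (isotype II-1). Exons of Rab2b, Rab3a, Rab4b, Rab5a, Rab6a, Rab24, Rab26 and Rab43 overlap those of another protein-coding gene, and exons of Rab27a overlap a processed pseudogene. Members whose exons overlap non-coding genes include Rab7, Rab10, Rab11b, Rab18 and Rab20. The cDNA kit does not mark strand, so reads in all these overlaps may belong to the neighbour or have been left out as ambiguous between genes.

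The summed level of the Rab transcripts depended on the scaling. With TMM factors it was 4622 to 5172 CPM at isotype stage I, 5407 to 5942 at stage II, 7042 to 7754 at stage III and 8139 to 8673 at stage IV, with no overlap between stages. Under anti-IL5 the sums were 5178 to 6248, 6011 to 6416, 7641 to 8038 and 7352 to 7596 CPM, so stages I and II overlapped and stage IV lay below stage III here. The TMM factors were 1.156 to 1.234 at isotype stage I and 0.879 to 0.893 at stage IV, and 1.141 to 1.193 and 0.85 to 0.894 under anti-IL5. As plain CPM, without these factors, the isotype sums were 5363 to 6380, 6061 to 6178, 6949 to 7302 and 7155 to 7745, so that stages I and II overlapped, as did III and IV. The plain anti-IL5 sums were 6173 to 7127 at stage I, 6412 to 6565 at stage II, 7033 to 7105 at stage III and 6456 to 6641 at stage IV. The range of stage I thus held those of all later stages, and stages II and IV overlapped too. A single gene, Rab44 (chr17:29114145-29148980), held 32.4% to 40.0% of the sum at isotype stage I and 20.8% to 23.4% at isotype stage IV, against 11.97% to 13.3% at anti-IL5 stage IV. Rab44 encodes an atypical, large Rab with an EF-hand domain that is known from mast cell degranulation. Without Rab44, the stage IV sums were 6335 to 6644 CPM under isotype and 6471 to 6649 CPM under anti-IL5 and overlapped.

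**Figure D1:**
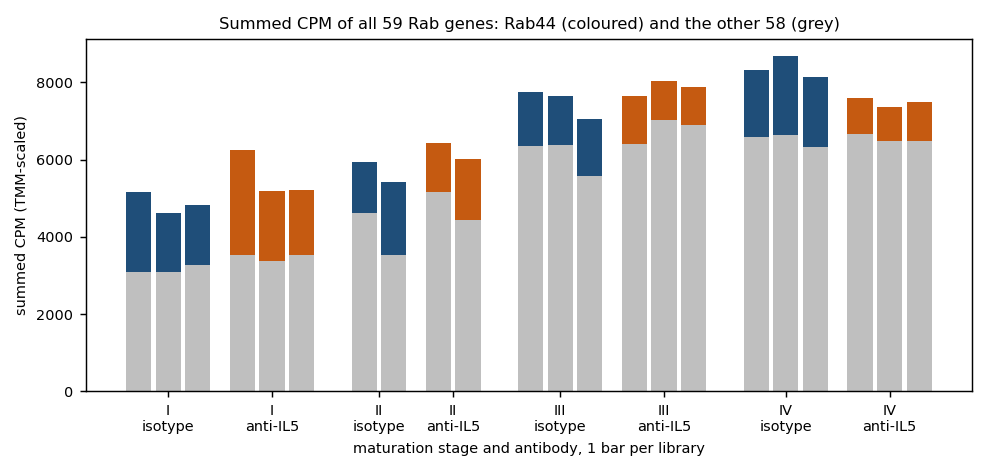
Summed TMM-scaled CPM of the 59 Rab genes (vertical axis) in each of the 22 libraries by stage and antibody, split into Rab44 and the other members. The sum rises from 4622 to 5172 CPM at isotype stage I to 8139 to 8673 CPM at isotype stage IV, and Rab44 takes 11.97% to 13.3% of it at anti-IL5 stage IV.

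Per kilobase of exon, the scale on which genes can be compared with each other, Rab44 held rank 1 among the members in 7 of the 8 groups and rank 4 at anti-IL5 stage IV. At isotype stage I it reached 339 ± 60.4 CPM per kb, followed by Rab2a, a Rab of ER to Golgi traffic, at 132 ± 5.83. At anti-IL5 stage IV it stood at 186 ± 11.5 CPM per kb, below Rab1b (211 ± 13.5), which also serves the ER to Golgi step, Rab7 (210.1 ± 6.9), the Rab of late endosomes, and Rab2a (202 ± 17.1), and these 4 levels lay within about their SDs of the next. Rab7, Rab1b and Rab2a held ranks 2 to 4 at isotype stage IV, where Rab44 was at 366 ± 31.3 CPM per kb.

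From stage I to IV, with TMM scaling, most of the tested Rab genes rose in both treatments. Under isotype 37 of 49 members were called, 31 higher and 6 lower. Of all tested genes 66.2% were called, 32.3% higher and 33.9% lower. Under anti-IL5 38 members were called, 31 higher and 7 lower, and of all genes 63.5% were called, 30.7% higher and 32.8% lower. The median log2 fold change of the members was 0.946 under isotype and 0.817 under anti-IL5, beside -0.045 and -0.058 over all genes. These member medians did not move with members at 3 or fewer counts set to their bound. Upper-quartile scaling moved the all-gene medians to -0.256 and -0.246 and the isotype split to 28 higher and 11 lower. Without scaling factors, an alternative chosen after seeing the data, the split was 23 higher and 12 lower under isotype and 24 and 8 under anti-IL5. The member medians were then 0.534 and 0.398 beside -0.462 and -0.476 over all genes, and no called member changed sign.

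Of the granule Rabs (9 tested), 3 rose and 2 fell over maturation in each treatment. Rab27a (chr9:73044854-73097629) stood at 105, 75.4 and 83.8 CPM at isotype stage I and 422, 360.1 and 282 at stage IV (log2 2.01 ± 0.17, edgeR adjusted p = 1.68e-09). Under anti-IL5 it went from 101, 98.1 and 85.6 to 368, 378 and 398 CPM (log2 2.00 ± 0.17, edgeR adjusted p = 2.33e-09). In both treatments every stage IV library lay above every stage I library. Rab3d, a Rab of regulated exocytosis, stood at 137, 115 and 123 CPM at isotype stage I and 232, 381 and 294.2 at stage IV (log2 1.28 ± 0.17, edgeR adjusted p = 1.33e-06), and the anti-IL5 rise was log2 0.82 ± 0.17, adjusted p = 0.000314. Rab37, known from mast cell granules, had 136, 124 and 162 CPM at isotype stage I and 245, 354 and 377 at stage IV (log2 1.21 ± 0.16, edgeR adjusted p = 1.22e-06). Under anti-IL5 its stage I libraries already held 219, 187 and 200.0 CPM and its stage IV libraries 247, 232 and 246 (log2 0.26 ± 0.16, edgeR adjusted p = 0.17), a difference that did not pass.

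Rab38 (chr7:88430273-88491572), which builds lysosome-related organelles such as melanosomes, fell early. It stood at 19.2, 18.3 and 24.4 CPM at isotype stage I, 1.51 and 1.36 at stage II and 2 counts in all at stage IV, a ratio of 367 (95% counting interval 101 to 3037, edgeR adjusted p = 8.43e-08). Under anti-IL5 the stage I libraries held 8.65, 14.8 and 24.9 CPM and the stage IV libraries 5 counts in all (log2 -6.53 ± 0.83, edgeR adjusted p = 6.4e-07). Rab27b, the close relative of Rab27a known from mast cells and platelets, fell from 5.18, 6.14 and 5.28 CPM (185 counts) at isotype stage I to 0 counts at stage IV, at least 65.1-fold lower against 3 counts over the group (edgeR adjusted p = 3.04e-05). Anti-IL5 libraries had 0, 1.33 and 2.24 CPM at stage I and 0.597, 0 and 0.449 at stage IV, and Rab27b was not called there (edgeR adjusted p = 0.113). Over the same stages 6 of the 8 basophil and mast cell markers fell under isotype, among them Mcpt8 from 253 ± 58.3 to 0.0567 ± 0.0982 CPM and Cpa3 from 669 ± 176 to 8.27 ± 2.69, and the part of such cells in the falls of Rab38 and Rab27b was not tested. Of the 5 megakaryocyte and platelet markers 3 fell and 1 rose under isotype, with a summed level of 789.8 to 1055 CPM at stage I and 486.1 to 589.1 CPM at stage IV. Itga2b fell from 886 ± 138 to 153 ± 9.25 CPM and Pf4 from 6.43 ± 2.29 to 0.119 ± 0.145 CPM, and their part in the fall of Rab27b was not tested either.

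Rab44 and Rab32 ended apart in the treatments. Rab44 held 2070, 1522 and 1559 CPM at isotype stage I and 1724, 2029 and 1804 at isotype stage IV, ranges that overlap (log2 0.11 ± 0.18, edgeR adjusted p = 0.613). Under anti-IL5 it went from 2724, 1805 and 1685 to 948, 880.1 and 996 CPM, with no overlap (log2 -1.14 ± 0.19, edgeR adjusted p = 1.6e-05). Rab32 (chr10:10545002-10558265), the relative of Rab38, showed 131, 119 and 116 CPM at isotype stage I and 124, 104 and 86.3 at stage IV (log2 -0.22 ± 0.16, edgeR adjusted p = 0.241), and 130.5, 139 and 144 and 194, 189.8 and 204 CPM under anti-IL5 (log2 0.51 ± 0.16, adjusted p = 0.00916). The anti-IL5 rise of Rab32 was not called under upper-quartile scaling. Rab3a, the synaptic vesicle Rab, stayed between 5.94 and 11.1 CPM in all libraries (log2 0.40 ± 0.29 under isotype, log2 0.21 ± 0.29 under anti-IL5, neither called), and Rab26, a Rab of secretory granule maturation, reached at most 1.44 CPM.

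**Figure D2:**
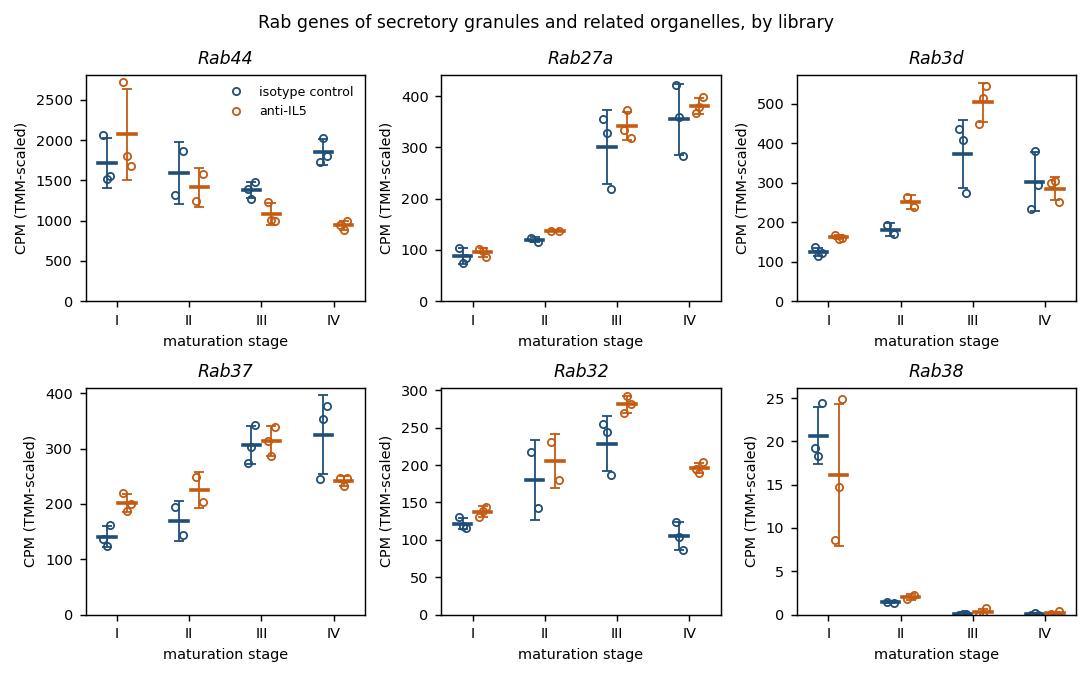
CPM of Rab44, Rab27a, Rab3d, Rab37, Rab32 and Rab38 by stage, 1 panel per gene; points are libraries, and bars give the mean ± SD of the isotype (blue) and anti-IL5 (orange) groups. Rab27a climbs in both treatments, Rab38 drops after stage I, and Rab44 and Rab32 part at stage IV, with anti-IL5 libraries of Rab44 at 880.1 to 996.1 CPM against 1724 to 2029 CPM.

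The Rabs of delivery to the plasma membrane rose together apart from Rab13. Rab8b, which with Rab8a carries vesicles to the cell surface, stood at 67.3, 50.6 and 60.8 CPM at isotype stage I and 359.5, 410.5 and 270.4 at stage IV (log2 2.54 ± 0.21, edgeR adjusted p = 1.06e-09) and rose under anti-IL5 (log2 2.38 ± 0.21, adjusted p = 3.57e-09). Rab8a went from 180.4, 206 and 239 to 603, 617 and 645 CPM under isotype (log2 1.58 ± 0.17, edgeR adjusted p = 6.13e-08; anti-IL5 log2 1.43 ± 0.17, adjusted p = 2.93e-07). Neither gene's stage I and stage IV libraries overlapped in either treatment. Rab10, active in exocytosis of membrane receptors and transporters, rose less (log2 0.72 ± 0.14, edgeR adjusted p = 9.27e-05; anti-IL5 log2 0.76 ± 0.14, adjusted p = 6.51e-05). Rab13, a Rab of epithelial junctions, had 26 counts at isotype stage I and 2 at stage IV, a ratio of 13.7 (3.44 to 119, edgeR adjusted p = 0.0457 [0.126, isotype IV-1/IV-3]). Under anti-IL5 Rab13 had 13 and 3 counts, a ratio of 4.56 (1.25 to 24.95), and was not called.

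Of the ER, Golgi and lipid droplet Rabs (11 tested), 10 rose and 1, Rab36, fell in each treatment. Rab33b, a Golgi Rab that also acts in autophagy, stood at 15.3, 9.06 and 16.1 CPM at isotype stage I and 54.7, 49.5 and 52.5 at stage IV (log2 1.95 ± 0.27, edgeR adjusted p = 1.47e-06; anti-IL5 log2 1.86 ± 0.27, adjusted p = 3.28e-06). Rab43 (log2 1.70 ± 0.23, edgeR adjusted p = 9.05e-07; anti-IL5 log2 1.17 ± 0.22, adjusted p = 9.66e-05) and Rab1b (log2 1.22 ± 0.15, edgeR adjusted p = 3.14e-07; anti-IL5 log2 1.35 ± 0.15, adjusted p = 8.71e-08) followed. Rab6b, the tissue-restricted relative of the Golgi Rab Rab6a, was at 0.222, 0.416 and 0 CPM at isotype stage I and 8.85, 10.5 and 5.34 at stage IV (log2 5.22 ± 0.94, edgeR adjusted p = 4.91e-05; anti-IL5 log2 4.28 ± 0.91, adjusted p = 0.000353), always below 11 CPM. Rab6a itself rose by less (log2 0.89 ± 0.25, edgeR adjusted p = 0.00434; anti-IL5 log2 0.91 ± 0.26, adjusted p = 0.00404). The smallest called rise was that of Rab1a (log2 0.43 ± 0.16, edgeR adjusted p = 0.0254 [0.128, isotype I-3/IV-1/IV-2]; anti-IL5 log2 0.44 ± 0.16, adjusted p = 0.0247 [0.13, anti-IL5 I-1/IV-1/IV-2]), which was not called by DESeq2 or under upper-quartile scaling in either treatment. Rab18, found on lipid droplets, rose by 0.96 ± 0.15 and 0.85 ± 0.15 on the log2 scale. Rab36 had 17 counts at isotype stage I and 0 at stage IV, at least 5.99-fold lower (edgeR adjusted p = 0.025 [0.0606, isotype IV-1/IV-2/IV-3]), and 29 and 0 counts under anti-IL5.

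All 3 Rab5 genes, whose products drive fusion of early endosomes, rose in both treatments. Rab5b was at 19.3, 19.1 and 14.1 CPM at isotype stage I and 84.7, 72.3 and 64.2 at stage IV (log2 2.07 ± 0.30, edgeR adjusted p = 3.4e-06; anti-IL5 log2 2.05 ± 0.30, adjusted p = 4.84e-06). Rab5a (log2 1.36 ± 0.15, edgeR adjusted p = 4.7e-08; anti-IL5 log2 1.03 ± 0.15, adjusted p = 2.52e-06) and Rab5c (log2 1.03 ± 0.28, edgeR adjusted p = 0.0027; anti-IL5 log2 1.01 ± 0.28, adjusted p = 0.00344) rose less. Rab22a, another early endosome Rab, rose as well (log2 1.28 ± 0.16, edgeR adjusted p = 6.06e-07; anti-IL5 log2 0.99 ± 0.16, adjusted p = 1.91e-05). Rab31, its close relative, was at 89.1, 69.3 and 82.1 CPM at isotype stage I and 59.7, 61.4 and 67.9 at stage IV (log2 -0.35 ± 0.18, edgeR adjusted p = 0.0916), and fell under anti-IL5 from 92.7, 87.8 and 92.4 to 61.8, 36.8 and 52.7 CPM (log2 -0.85 ± 0.18, edgeR adjusted p = 0.000322). Rab31 was also called lower under isotype by DESeq2 and by upper-quartile scaling (log2 -0.45 and -0.56). Rab20, a Rab of phagosome maturation, passed under anti-IL5 (log2 0.82 ± 0.27, edgeR adjusted p = 0.0132) and not under isotype (log2 0.52 ± 0.27, edgeR adjusted p = 0.0948). Rab17, an epithelial Rab, had 61 counts at isotype stage I and 66 at anti-IL5 stage I and 0 at stage IV in both, at least 21.5-fold and 23.1-fold lower (edgeR adjusted p = 0.00401 and 0.00394).

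Recycling Rabs (7 tested) had 5 rises and 1 fall in each treatment, the fall being Rab4a under isotype and Rab25 under anti-IL5. Rab35, which returns cargo from endosomes to the plasma membrane, stood at 6.58, 7.5 and 7.74 CPM at isotype stage I and 46.5, 24.8 and 25.8 at stage IV (log2 2.15 ± 0.35, edgeR adjusted p = 1.28e-05; anti-IL5 log2 1.82 ± 0.35, adjusted p = 0.000121). Rab11b (log2 1.65 ± 0.13, edgeR adjusted p = 5.55e-10; anti-IL5 log2 1.26 ± 0.13, adjusted p = 3.54e-08) and Rab11a (log2 1.29 ± 0.15, edgeR adjusted p = 9.45e-08; anti-IL5 log2 1.06 ± 0.15, adjusted p = 1.75e-06), the Rabs of slow recycling, rose too. Rab4a (chr8:123805985-123835287), a Rab of fast recycling, fell under isotype from 8.51, 9.99 and 9.24 to 4.08, 4.92 and 3.28 CPM (log2 -1.17 ± 0.33, edgeR adjusted p = 0.00368) and was at 2.96, 3.24 and 4.19 and 3.7, 2.76 and 2.79 CPM under anti-IL5 (log2 -0.17 ± 0.34, edgeR adjusted p = 0.672). Its anti-IL5 libraries were thus already low at stage I. Rab25, an epithelial relative of Rab11a, had 28 counts at anti-IL5 stage I and 3 at stage IV, a ratio of 9.82 (3.03 to 50.5, edgeR adjusted p = 0.0381 [0.122, anti-IL5 I-2/I-3/IV-1/IV-2/IV-3]). Under isotype Rab25 had 19 and 2 counts, a similar ratio of 10.04 (2.42 to 88.85), and was not called.

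Among late endosome, lysosome and autophagy Rabs (6 tested), Rab7, the Rab of fusion with lysosomes, went from 225, 234 and 258 CPM at isotype stage I to 552, 558 and 512 at stage IV (log2 1.18 ± 0.13, edgeR adjusted p = 4.34e-08; anti-IL5 log2 1.06 ± 0.13, adjusted p = 2.5e-07). Rab29, known for recruiting the kinase Lrrk2 to lysosomes and Golgi, rose in both (log2 1.36 ± 0.22, edgeR adjusted p = 1.46e-05; anti-IL5 log2 1.45 ± 0.22, adjusted p = 7.86e-06). Rab24, a Rab linked to autophagy, fell under anti-IL5 from 338, 232 and 224 to 167, 120.5 and 118 CPM (log2 -0.97 ± 0.22, edgeR adjusted p = 0.000595) and was at 225, 214 and 226 and 150.4, 162 and 186 CPM under isotype (log2 -0.42 ± 0.22, edgeR adjusted p = 0.0953). DESeq2 and upper-quartile scaling called Rab24 lower under isotype. Rab9, which returns cargo from late endosomes to the Golgi, was called in neither treatment.

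Rab39 (chr9:53684110-53706232), a less studied Rab, showed a steep climb from almost no expression. Its isotype libraries held 0.961, 0.104 and 0.0943 CPM at stage I, 1.09 and 3.06 at stage II, 6.49, 10.2 and 6.57 at stage III and 16.7, 18 and 18.4 at stage IV (log2 5.33 ± 0.54, edgeR adjusted p = 1.72e-08 from stage I to IV). The anti-IL5 libraries held 2.49, 2.47 and 4.58, then 5.48 and 10.4, then 14.3, 22.1 and 23.4, then 28.1, 33 and 28 CPM (log2 3.22 ± 0.44, edgeR adjusted p = 1.84e-06). At each stage, every anti-IL5 library lay above every isotype library, though edgeR called the difference between the treatments at stage I only.

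**Figure D3:**
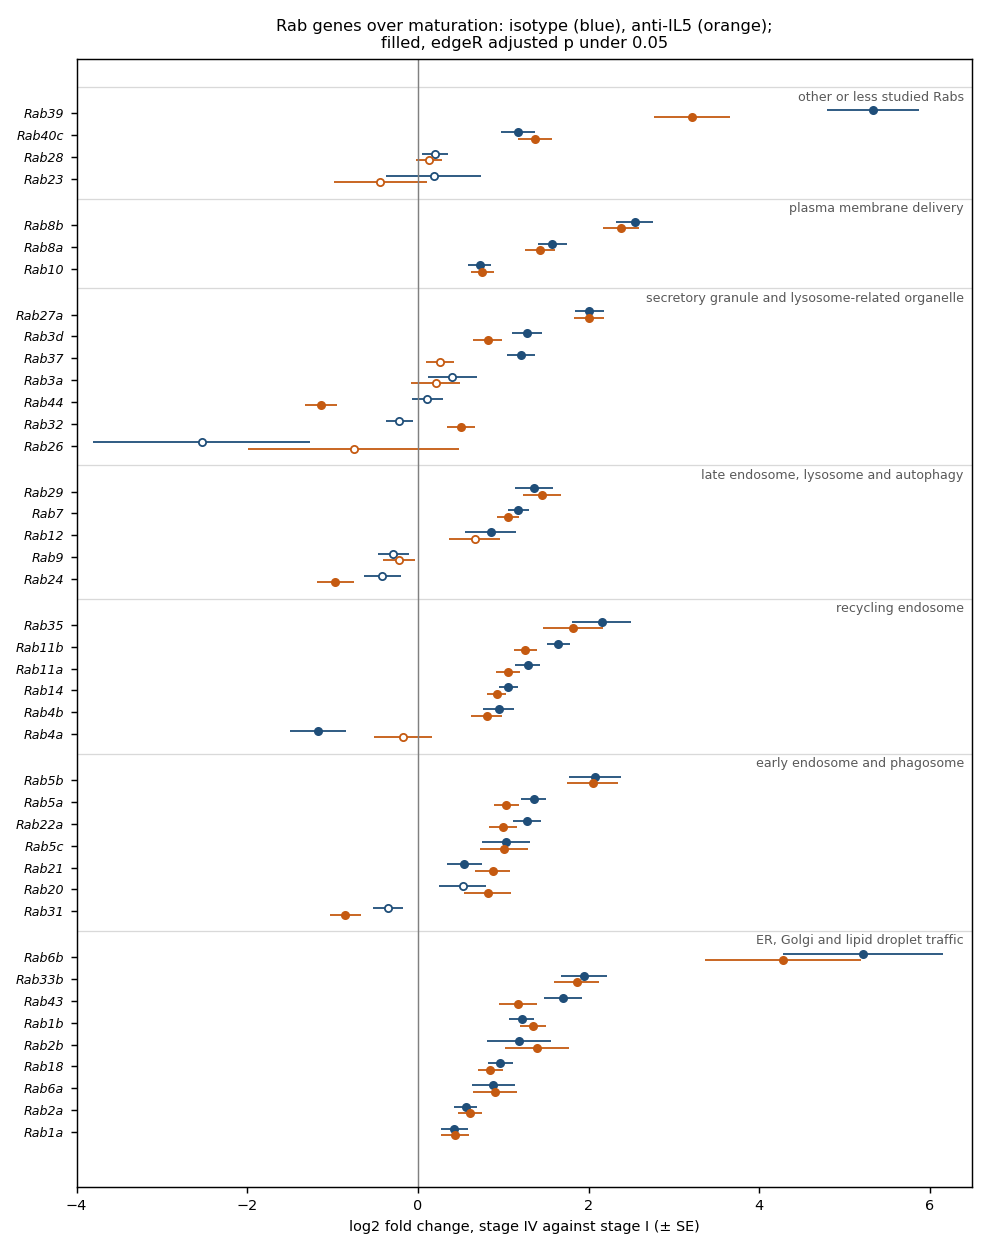
Log2 fold change ± SE of stage IV against stage I (horizontal axis) for the 41 members with more than 3 counts in every group compared, ordered by role; blue is isotype, orange is anti-IL5, and filled points were called by edgeR. Most points lie right of 0, Rab39 and Rab6b furthest, and Rab44, Rab32 and Rab31 are among the genes whose isotype point is open and whose anti-IL5 point is filled.

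The step from stage I to II moved 16.3% of the tested Rab genes under isotype and 22.4% under anti-IL5. Under isotype 8 of 49 were called, 7 higher and 1 lower, beside 10.6% of all genes, 7.39% higher and 3.25% lower. Under anti-IL5 11 were called, 9 higher and 2 lower, beside 12.4% of all genes, 7.27% higher and 5.16% lower. Rab11a, already described as a recycling Rab, rose from 155, 159 and 157 to 334 and 234 CPM under isotype (log2 0.86 ± 0.16, edgeR adjusted p = 0.00131 [0.0833, isotype II-1]) and from 199.7, 181 and 179 to 387 and 297.2 under anti-IL5 (log2 0.87 ± 0.16, adjusted p = 0.0011), with no overlap in either treatment. Rab8a rose in both treatments (log2 0.72 ± 0.19 [0.52, isotype I-1/I-2/II-1]; anti-IL5 log2 0.83 ± 0.19 [0.164, anti-IL5 II-1]). So did Rab7 (log2 0.50 ± 0.14 [0.362, isotype I-1/I-2/II-1]; anti-IL5 log2 0.58 ± 0.14 [0.116, anti-IL5 II-1]) and Rab32 (log2 0.56 ± 0.18 [0.621, isotype I-1/I-2/I-3/II-1]; anti-IL5 log2 0.57 ± 0.18 [0.398, anti-IL5 I-1/I-2/I-3/II-1]). Rab28, linked to cilia, rose under isotype (log2 0.63 ± 0.17, edgeR adjusted p = 0.0189 [0.421, isotype I-3/II-1]). Under anti-IL5 Rab20 (log2 1.05 ± 0.30 [0.532, anti-IL5 I-2/I-3/II-1]), Rab1b (log2 0.79 ± 0.16 [0.094, anti-IL5 II-1]) and Rab22a (log2 0.78 ± 0.18 [0.101, anti-IL5 II-1]) rose. Rab4b (log2 0.78 ± 0.20 [0.477, anti-IL5 I-2/I-3/II-1]) and Rab3d (log2 0.63 ± 0.19 [0.222, any of the 5 libraries]) rose there too. Rab38 fell in both (log2 -3.84 ± 0.79, edgeR adjusted p = 0.00303 under isotype, log2 -2.97 ± 0.74, adjusted p = 0.0107 [0.129, anti-IL5 I-3/II-1/II-2] under anti-IL5). The remaining calls were low genes, Rab39 (2.08 ± 1.39 against 0.387 ± 0.498 CPM [0.342, isotype I-2/I-3/II-2]) and Rab19 (23 against 3 counts [0.783, isotype I-1/I-2/I-3/II-1]) under isotype, and Rab27b under anti-IL5 (0 against 37 counts [0.18, anti-IL5 I-2/I-3/II-1/II-2]). Most of these calls rested on single libraries: without isotype II-1 only 2 members were called under isotype, and without anti-IL5 II-1 only 1 under anti-IL5. Rab44 (log2 -0.11 ± 0.20; anti-IL5 log2 -0.55 ± 0.21), Rab27a (log2 0.44 ± 0.19; anti-IL5 log2 0.53 ± 0.19) and Rab37 (log2 0.26 ± 0.18; anti-IL5 log2 0.16 ± 0.18) did not pass at this step.

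The largest number of Rab genes moved between stages II and III. Under isotype 26 of 49 were called, 24 higher and 2 lower, beside 37.1% of all genes, 19% higher and 18.1% lower. Under anti-IL5 25 were called, 23 higher and 2 lower, beside 39.5% of all genes, 19.8% higher and 19.7% lower. Granule Rabs and Rab8b were among those that rose. Rab27a went from 123 and 116 to 355, 328 and 218 CPM under isotype (log2 1.33 ± 0.20, edgeR adjusted p = 2.79e-05; anti-IL5 log2 1.32 ± 0.20, adjusted p = 1.86e-05). Rab3d went from 193 and 169 to 436, 408 and 274 CPM under isotype (log2 1.04 ± 0.20, edgeR adjusted p = 0.000335; anti-IL5 log2 1.00 ± 0.20, adjusted p = 0.000355). Rab8b went from 69.7 and 65.2 to 146, 225 and 136 CPM under isotype (log2 1.33 ± 0.24, edgeR adjusted p = 0.00019; anti-IL5 log2 1.39 ± 0.24, adjusted p = 8.54e-05). Stage II and stage III libraries did not overlap for any of these 3 genes. Rab37 rose in both treatments (log2 0.86 ± 0.19; anti-IL5 log2 0.47 ± 0.18 [0.285, anti-IL5 II-1/II-2/III-1/III-3]), and Rab32 rose under anti-IL5 (log2 0.46 ± 0.18 [0.351, anti-IL5 II-2/III-1/III-2/III-3]). Rab44 (log2 -0.21 ± 0.20; anti-IL5 log2 -0.39 ± 0.20) and Rab8a (log2 0.28 ± 0.19; anti-IL5 log2 0.26 ± 0.19) did not pass.

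Of the endosome Rabs, Rab5b rose in both treatments at this step (log2 1.36 ± 0.34 [0.0761, isotype II-1]; anti-IL5 log2 1.73 ± 0.35). Rab5a (log2 0.64 ± 0.17) and Rab5c (log2 0.99 ± 0.32 [0.233, isotype II-1/III-1]) did so under isotype. The recycling Rab Rab35 rose under isotype (log2 1.76 ± 0.40), and Rab11a in both treatments (log2 0.84 ± 0.16; anti-IL5 log2 0.63 ± 0.16 [0.0852, anti-IL5 II-2]). Rab31 (log2 0.90 ± 0.21) and Rab20 (log2 0.85 ± 0.31 [0.343, isotype II-2/III-1/III-2]) rose under isotype. Rab7 (log2 0.61 ± 0.14 [0.0546, isotype II-2]; anti-IL5 log2 0.49 ± 0.14 [0.0846, anti-IL5 II-2]) rose in both treatments. Rab10 did as well (log2 0.45 ± 0.16 [0.122, isotype II-1/II-2/III-1/III-2]; anti-IL5 log2 0.42 ± 0.16 [0.146, anti-IL5 II-1/II-2/III-1/III-2]). In the Golgi group Rab43 rose in both treatments (log2 1.58 ± 0.26; anti-IL5 log2 1.09 ± 0.25). Rab6a (log2 1.05 ± 0.29 [0.063, isotype II-2]; anti-IL5 log2 0.73 ± 0.29 [0.574, anti-IL5 II-1/III-2]) and Rab1a (log2 0.58 ± 0.19 [0.124, isotype II-1/III-2]; anti-IL5 log2 0.91 ± 0.19) rose less. Rab19 climbed from 2.88 and 0.226 to 4.84, 11.3 and 22.9 CPM under isotype (log2 3.10 ± 0.94, edgeR adjusted p = 0.013 [0.124, isotype II-2/III-3]). Rab39 rose under anti-IL5 (log2 1.33 ± 0.47 [0.257, anti-IL5 II-1/III-2/III-3]). Rab23 (log2 1.64 ± 0.63 [0.222, any of the 5 libraries]) and Rab12 (log2 1.13 ± 0.35 [0.208, anti-IL5 II-1]) also rose under anti-IL5. Rab24 fell in both treatments. Its isotype libraries went from 457 and 250.1 to 199.7, 204 and 246 CPM (log2 -0.71 ± 0.24, edgeR adjusted p = 0.024 [0.659, isotype II-1/III-1/III-2]), and its anti-IL5 libraries from 458 and 261 to 199, 174 and 193 CPM (log2 -0.93 ± 0.24, edgeR adjusted p = 0.00365 [0.213, anti-IL5 II-1]). The other fall was that of Rab38, from 23 to 2 counts under isotype (a ratio of 20.4, 5.03 to 178) and from 2.04 ± 0.368 to 0.237 ± 0.411 CPM under anti-IL5. Rab27b was called higher under anti-IL5, with 22 counts at stage III after 0 at stage II [0.126, anti-IL5 II-1/II-2/III-3], at least 4.01-fold.

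From stage III to IV rises and falls were mixed. Under isotype 17 of 49 were called, 11 higher and 6 lower, beside 33.6% of all genes, 14.8% higher and 18.8% lower, and upper-quartile scaling gave 8 higher and 7 lower. Replicate numbers paired these libraries, and with the replicate block Rab2b was called higher too (log2 0.85, edgeR adjusted p = 0.0388, against 0.0697 without it). Under anti-IL5 10 were called, 4 higher and 6 lower, beside 23.8% of all genes, 10.4% higher and 13.4% lower. Among the 11 higher under isotype were the delivery Rabs Rab8b (log2 1.04 ± 0.20) and Rab8a (log2 0.58 ± 0.17 [0.0576, isotype III-3]). The endosome Rabs Rab11b (log2 0.75 ± 0.13) and Rab5a (log2 0.63 ± 0.14) rose as well. Rab39 (log2 1.18 ± 0.41 [0.0973, isotype III-1/III-3/IV-1/IV-2/IV-3]), Rab33b (log2 0.67 ± 0.26 [0.189, any of the 6 libraries]) and Rab29 (log2 0.59 ± 0.22 [0.099, any of the 6 libraries]) followed. Under anti-IL5 the rises at 10 CPM or more were 3 in number. They were Rab40c, a Rab with a SOCS box (log2 0.57 ± 0.19 [0.158, anti-IL5 III-1/III-2/IV-2/IV-3]), Rab5a (log2 0.52 ± 0.14 [0.0592, anti-IL5 III-3/IV-2]) and Rab11b (log2 0.40 ± 0.13 [0.178, anti-IL5 III-1/IV-1/IV-2/IV-3]). Rab44 (log2 0.42 ± 0.18; anti-IL5 log2 -0.20 ± 0.18), Rab27a (log2 0.24 ± 0.17; anti-IL5 log2 0.16 ± 0.17) and Rab37 (log2 0.09 ± 0.16; anti-IL5 log2 -0.38 ± 0.16) did not pass.

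The falls at this step included 5 Rabs that had risen before it under isotype. Rab31 went from 162, 140.2 and 114 to 59.7, 61.4 and 67.9 CPM (log2 -1.14 ± 0.18, edgeR adjusted p = 4.09e-05), and under anti-IL5 from 174, 136 and 122 to 61.8, 36.8 and 52.7 (log2 -1.52 ± 0.18, adjusted p = 2.32e-06). Rab32 went from 254, 244 and 186 to 124, 104 and 86.3 CPM (log2 -1.12 ± 0.16, edgeR adjusted p = 1.34e-05), and under anti-IL5 from 270.1, 292.9 and 281 to 194, 189.8 and 204 (log2 -0.52 ± 0.16, adjusted p = 0.0208 [0.0699, anti-IL5 III-2/IV-1/IV-2]). Neither gene's stage III and IV libraries overlapped in either treatment. Rab20 fell in both treatments (log2 -0.94 ± 0.27 [0.0628, isotype III-2]; anti-IL5 log2 -0.80 ± 0.27 [0.104, any of the 6 libraries]). Rab11a fell in both as well (log2 -0.41 ± 0.14 [0.142, isotype III-1/III-2/III-3/IV-2/IV-3]; anti-IL5 log2 -0.45 ± 0.14 [0.127, anti-IL5 III-1/III-2/III-3/IV-2/IV-3]). Rab19 fell under isotype from 4.84, 11.3 and 22.9 to 3.06, 1.97 and 2.25 CPM (log2 -2.42 ± 0.75, edgeR adjusted p = 0.0165 [0.12, isotype III-3/IV-2/IV-3]) and was at 9.81, 7.02 and 8.1 and 4.06, 0.801 and 2.52 CPM under anti-IL5 (log2 -1.77 ± 0.75, edgeR adjusted p = 0.0939). Rab27b fell from 57 to 0 counts under isotype, at least 23.7-fold. Rab3d fell under anti-IL5 from 449, 516 and 544 to 299.4, 303.8 and 252 CPM (log2 -0.82 ± 0.17, edgeR adjusted p = 0.00121), against log2 -0.30 ± 0.17 under isotype, a difference between the treatments that did not pass (log2 -0.52 ± 0.24, adjusted p = 0.461). Rab23 fell under anti-IL5 as well (log2 -1.85 ± 0.55, edgeR adjusted p = 0.0171 [0.0811, anti-IL5 III-3/IV-2/IV-3]). The summed neutrophil markers were at 4013 to 5670 CPM at isotype stage II, 5193 to 7731 at stage III and 311.9 to 494.5 at stage IV. The monocyte and macrophage list summed to 1404 to 1476 CPM at isotype stage II, 1693 to 2911 at stage III and 1036 to 2057 at stage IV. The part of either list in these rises and falls was not tested.

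**Figure D4:**
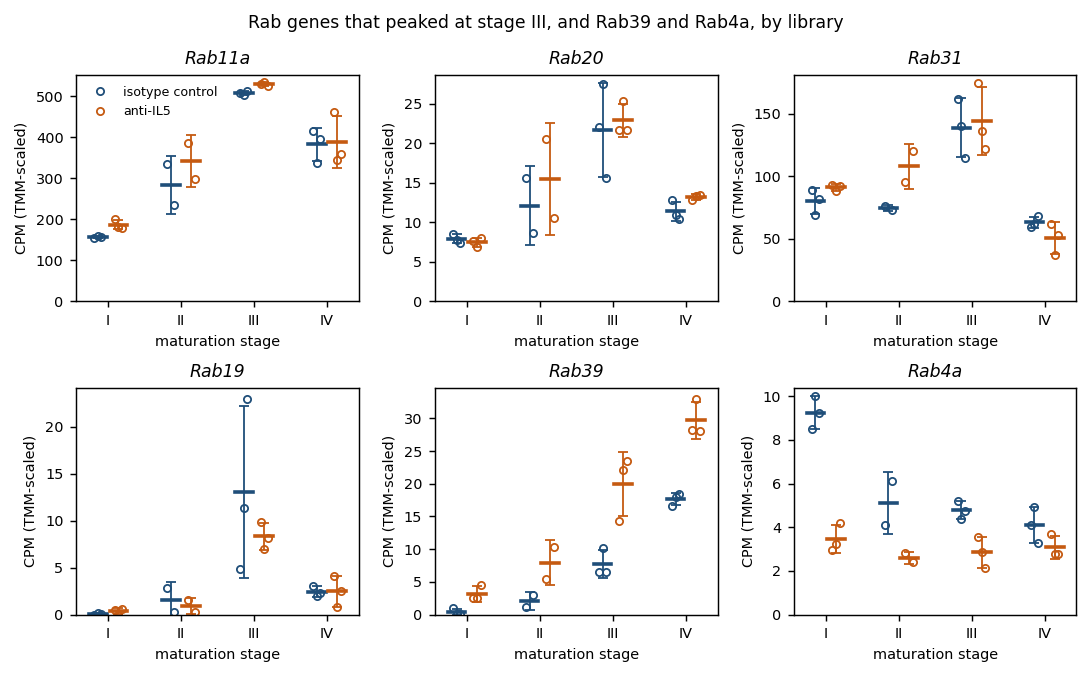
CPM by stage of Rab11a, Rab20, Rab31, Rab19, Rab39 and Rab4a, 1 panel per gene; points are libraries, and bars give the mean ± SD of the isotype (blue) and anti-IL5 (orange) groups. Rab11a, Rab20, Rab31 and Rab19 have their highest means at stage III in both treatments, and Rab39 climbs to stage IV. Rab4a has a lower anti-IL5 mean at every stage and was called lower at stage I only.

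The promoters of these 5 genes are shown because these genes, chosen by their values, rose at an earlier step and fell at this one under isotype. Each line holds the 300 bases from 250 before to 50 after the start that RefSeq lists (GRCm38.p6), written 5′ to 3′ on the gene's strand. Rab11a lies at chr9:64737707-64738006 on the minus strand, Rab19 at chr6:39381103-39381402 on the plus strand, and Rab20 at chr8:11478591-11478890, Rab31 at chr17:65772703-65773002 and Rab32 at chr10:10558158-10558457 on the minus strand. Capitals mark a match to any of 3 motifs searched on both strands: the palindromic E-box CACGTG, the GATA motif AGATAA, and the GAS motif TTCNNNGAA, the form read by STAT factors such as STAT5 downstream of the IL-5 receptor.
Rab11a: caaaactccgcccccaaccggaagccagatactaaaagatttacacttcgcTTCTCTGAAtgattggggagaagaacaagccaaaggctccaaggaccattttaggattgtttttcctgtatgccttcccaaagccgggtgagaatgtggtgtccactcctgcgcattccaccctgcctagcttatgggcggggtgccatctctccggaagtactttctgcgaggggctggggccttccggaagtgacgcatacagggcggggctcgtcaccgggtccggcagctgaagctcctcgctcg
Rab19: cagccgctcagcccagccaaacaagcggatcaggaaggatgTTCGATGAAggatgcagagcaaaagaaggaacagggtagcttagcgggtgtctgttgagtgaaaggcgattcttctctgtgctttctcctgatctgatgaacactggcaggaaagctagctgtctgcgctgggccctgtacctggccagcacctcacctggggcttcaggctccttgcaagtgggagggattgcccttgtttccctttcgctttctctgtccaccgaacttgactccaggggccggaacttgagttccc
Rab20: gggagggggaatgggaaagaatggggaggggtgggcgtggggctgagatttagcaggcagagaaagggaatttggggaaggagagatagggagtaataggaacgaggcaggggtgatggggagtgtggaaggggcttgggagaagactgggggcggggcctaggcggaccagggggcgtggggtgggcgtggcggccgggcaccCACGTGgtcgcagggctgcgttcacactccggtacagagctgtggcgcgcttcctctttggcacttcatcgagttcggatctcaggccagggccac
Rab31: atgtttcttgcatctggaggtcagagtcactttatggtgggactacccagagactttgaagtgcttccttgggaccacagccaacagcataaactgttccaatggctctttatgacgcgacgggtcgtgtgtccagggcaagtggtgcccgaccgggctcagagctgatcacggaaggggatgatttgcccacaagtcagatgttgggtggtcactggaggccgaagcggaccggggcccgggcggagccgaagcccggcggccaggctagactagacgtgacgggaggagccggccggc
Rab32: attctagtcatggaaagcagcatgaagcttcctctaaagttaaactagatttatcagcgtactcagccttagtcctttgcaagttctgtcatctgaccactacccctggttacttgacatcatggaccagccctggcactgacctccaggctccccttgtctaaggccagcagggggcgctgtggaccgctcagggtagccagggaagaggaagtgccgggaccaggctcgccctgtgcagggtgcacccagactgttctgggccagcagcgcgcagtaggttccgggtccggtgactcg

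The promoters of Rab11a and Rab19 each held 1 GAS match and that of Rab20 1 E-box, and in those of Rab31 and Rab32 none of the 3 motifs was found. RefSeq promoters were listed for 48 of the 59 Rab genes, 60 promoters in all. Of these 60, 8.33% held a GAS match (Rab11a, Rab15, Rab19, Rab25 and Rab34), beside 8.30% of 32851 promoters of the same length. The E-box was in 10.0% of the Rab promoters (Rab20, Rab21, Rab23, Rab24, Rab27a and Rab5a) and 7.15% of all, and the GATA motif in 3.33% (Rab34 and Rab43) and 11.2% of all. No motif overlapped another in the promoters shown. A match is a run of letters and no measured binding site.

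Between the treatments, 4.08%, 2.04%, 0% and 4.08% of the 49 tested Rab genes were called at stages I to IV. Of all genes the shares were 4.42%, 1.75%, 6.37% and 1.05%. At stage I 2 of 49 were called, 1 higher and 1 lower, beside 4.42% of all genes, 2.61% higher and 1.82% lower. Rab39 was at 0.961, 0.104 and 0.0943 CPM in isotype and 2.49, 2.47 and 4.58 CPM in anti-IL5 libraries (log2 2.87 ± 0.56, edgeR adjusted p = 0.00429), with no overlap. Its call held with each of the 6 libraries left out, by DESeq2 and by limma-voom. Rab4a was at 8.51, 9.99 and 9.24 CPM in isotype and 2.96, 3.24 and 4.19 CPM in anti-IL5 libraries (log2 -1.41 ± 0.33, edgeR adjusted p = 0.0175 [0.0891, isotype I-2/I-3, anti-IL5 I-1/I-2]), again with no overlap, and was not called without the filter on low counts. At the later stages Rab4a was not called, but its anti-IL5 means stayed below isotype. They were 2.605 ± 0.278 against 5.109 ± 1.418 CPM at stage II, 2.851 ± 0.697 against 4.778 ± 0.424 at III and 3.081 ± 0.535 against 4.095 ± 0.823 at IV. Rab37 was at 136, 124 and 162 and 219, 187 and 200.0 CPM (log2 0.52 ± 0.16, edgeR adjusted p = 0.0712), groups that did not overlap either, and was called by DESeq2 (adjusted p = 0.0404). The eosinophil markers Ccr3 (log2 2.41 ± 0.41) and Alox15 (log2 1.65 ± 0.24), which rise with maturation, were higher at this stage as well. They were the 2 called of 10 eosinophil markers, and the list sums overlapped (43650 to 50780 CPM under isotype, 44690 to 54350 under anti-IL5). Of the 6 monocyte markers 1 was called, Csf1r, which was higher (log2 1.59 ± 0.35 [0.0844, isotype I-2, anti-IL5 I-1]), and limma-voom called 0. The monocyte sums overlapped too (653.2 to 1118 and 846.1 to 972.8 CPM). Whether these markers share a source with Rab39 and Rab4a was not tested.

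The other granule Rabs were not called at stage I. Rab27b was at 5.18, 6.14 and 5.28 CPM in isotype and 0, 1.33 and 2.24 in anti-IL5 libraries (edgeR adjusted p = 0.178), below isotype in 3 of 3 libraries and called by limma-voom. Rab44 (log2 0.27 ± 0.18, edgeR adjusted p = 0.471), Rab27a (log2 0.11 ± 0.17, adjusted p = 0.807), Rab3d (log2 0.38 ± 0.17, adjusted p = 0.249), Rab32 (log2 0.18 ± 0.16, adjusted p = 0.62) and Rab3a (log2 0.19 ± 0.29, adjusted p = 0.811) did not pass. Nor did the endosome Rabs Rab5a (log2 0.22 ± 0.15), Rab5b (log2 0.03 ± 0.30), Rab5c (log2 0.00 ± 0.28), Rab31 (log2 0.18 ± 0.18) and Rab20 (log2 -0.08 ± 0.28). The same holds for Rab7 (log2 0.14 ± 0.13), Rab11a (log2 0.25 ± 0.14), Rab8a (log2 0.20 ± 0.17) and Rab10 (log2 0.06 ± 0.14). In the Golgi route Rab1a (log2 -0.21 ± 0.16) and Rab6a (log2 -0.20 ± 0.26) were not called.

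At stage II the only Rab gene called was Rab27b, which was lower, beside 1.75% of all genes, 0.565% higher and 1.19% lower. It had 2.88 and 3.06 CPM (48 counts) in the isotype libraries and 0 counts in both anti-IL5 libraries, at least 17.2-fold lower (edgeR adjusted p = 0.0408 [0.197, isotype II-2, anti-IL5 II-1/II-2]). With 2 libraries a group, this call rested on few reads, and limma-voom did not make it (adjusted p = 0.0529). The basophil and mast cell list summed to 1084 to 1335 CPM under anti-IL5 and 1409 to 2030 CPM under isotype, without overlap. The megakaryocyte and platelet list did not overlap either (673.3 to 894.5 and 921.9 to 991.1 CPM). Of these 8 and 5 markers edgeR called 0, and the part of such cells in the Rab27b call was not tested. Rab39 was at 1.09 and 3.06 CPM in isotype and 5.48 and 10.4 CPM in anti-IL5 libraries (log2 1.91 ± 0.56, edgeR adjusted p = 0.0952), which DESeq2 called (adjusted p = 0.00811). Without isotype II-1, 4 members were called. The granule Rabs Rab44 (log2 -0.17 ± 0.22), Rab27a (log2 0.20 ± 0.21), Rab3d (log2 0.47 ± 0.21), Rab37 (log2 0.42 ± 0.20), Rab32 (log2 0.19 ± 0.20) and Rab38 (log2 0.52 ± 0.82) did not pass. Among the endosome, delivery and Golgi Rabs, Rab31 (log2 0.53 ± 0.22), Rab20 (log2 0.36 ± 0.33), Rab11a (log2 0.27 ± 0.18), Rab8a (log2 0.31 ± 0.21), Rab7 (log2 0.22 ± 0.15), Rab5b (log2 -0.22 ± 0.37) and Rab1a (log2 -0.24 ± 0.20) did not pass either.

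At stage III no Rab gene was called by edgeR, beside 6.37% of all genes, 1.32% higher and 5.05% lower. In this contrast 7 members had an unadjusted p under 0.05, DESeq2 called 2 and limma-voom 1. Rab39 came closest, at 6.49, 10.2 and 6.57 CPM in isotype and 14.3, 22.1 and 23.4 in anti-IL5 libraries (log2 1.35 ± 0.41, edgeR adjusted p = 0.0507). It was called by DESeq2 (adjusted p = 0.00564) and limma-voom (adjusted p = 0.014), and by edgeR without isotype III-2 or anti-IL5 III-1, and the groups did not overlap. Rab12, a Rab of lysosome and receptor degradation, was the other gene DESeq2 called (log2 0.86 ± 0.30, edgeR adjusted p = 0.0923). Rab3d was at 436, 408 and 274 and 449, 516 and 544 CPM (log2 0.43 ± 0.17, edgeR adjusted p = 0.139), and Rab44 at 1399, 1269 and 1477 and 1237, 1010 and 996 CPM (log2 -0.35 ± 0.18, edgeR adjusted p = 0.266). In both genes the groups did not overlap, but neither passed. Rab27b (log2 -1.53 ± 0.90), Rab32 (log2 0.30 ± 0.16), Rab27a (log2 0.19 ± 0.17) and Rab37 (log2 0.03 ± 0.16) did not pass. Not called either were Rab8a (log2 0.29 ± 0.17), Rab10 (log2 0.21 ± 0.14), Rab5b (log2 0.15 ± 0.29), Rab7 (log2 0.11 ± 0.12), Rab11a (log2 0.06 ± 0.14), Rab31 (log2 0.05 ± 0.18) and Rab20 (log2 0.07 ± 0.26). At this stage 5 of 8 basophil and mast cell markers were lower under anti-IL5, with the list at 685.3 to 789.7 against 1279 to 2027 CPM. The eosinophil list summed to 26610 to 31930 CPM under anti-IL5 against 42600 to 49570 under isotype, with 2 of its 10 markers called.

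At stage IV 2 of 49 Rab genes were called, 1 higher and 1 lower, beside 1.05% of all genes, 0.186% higher and 0.864% lower. Rab44 was at 1724, 2029 and 1804 CPM in the isotype and 948, 880.1 and 996 CPM in the anti-IL5 libraries (log2 -0.98 ± 0.18, edgeR adjusted p = 0.00622). Rab32 was at 124, 104 and 86.3 CPM in isotype and 194, 189.8 and 204 CPM in anti-IL5 libraries (log2 0.90 ± 0.16, edgeR adjusted p = 0.00406). In both genes the groups were apart, and both calls held with any of the 6 libraries left out (highest edgeR adjusted p 0.0498 for Rab44 and 0.0373 for Rab32), by DESeq2, by limma-voom, under upper-quartile scaling and without the filter. Rab32 fell from stage III to IV in both treatments, but the anti-IL5 libraries stayed near their stage II level (205 ± 36.1 CPM) while the isotype libraries went below theirs (179.8 ± 53.1 CPM).

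Apart from Rab32 and Rab44, no tested member was called at stage IV. This includes Rab39, at 16.67, 18.03 and 18.36 CPM in isotype and 28.15, 33.01 and 28.04 in anti-IL5 libraries, groups that did not overlap. Rab37 was at 245, 354 and 377 and 247, 232 and 246 CPM (log2 -0.43 ± 0.16, edgeR adjusted p = 0.331), and the groups overlapped. Rab27b had 0 counts in isotype and 10 in anti-IL5 libraries and was not called (edgeR adjusted p = 0.267). Rab27a (log2 0.10 ± 0.17), Rab3d (log2 -0.09 ± 0.17), Rab3a (log2 -0.01 ± 0.29), Rab5a (log2 -0.10 ± 0.14), Rab5b (log2 0.01 ± 0.29), Rab5c (log2 -0.02 ± 0.27), Rab7 (log2 0.02 ± 0.12), Rab11a (log2 0.02 ± 0.14), Rab8a (log2 0.05 ± 0.17) and Rab10 (log2 0.09 ± 0.14) did not pass. The neutrophil list summed to 311.9 to 494.5 CPM in isotype and 708.1 to 1747 CPM in anti-IL5 libraries at this stage, where S100a9 (log2 1.75 ± 0.31) and Ngp (log2 1.39 ± 0.30 [0.129, isotype IV-1/IV-2/IV-3, anti-IL5 IV-2/IV-3]) were higher. The eosinophil granule genes Epx, Prg2 and Ear6 were lower under anti-IL5. The basophil and mast cell list overlapped (295.4 to 372.1 and 307.4 to 359.3 CPM). The part of neutrophil transcripts in the Rab32 and Rab44 results was not tested.

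**Figure D5:**
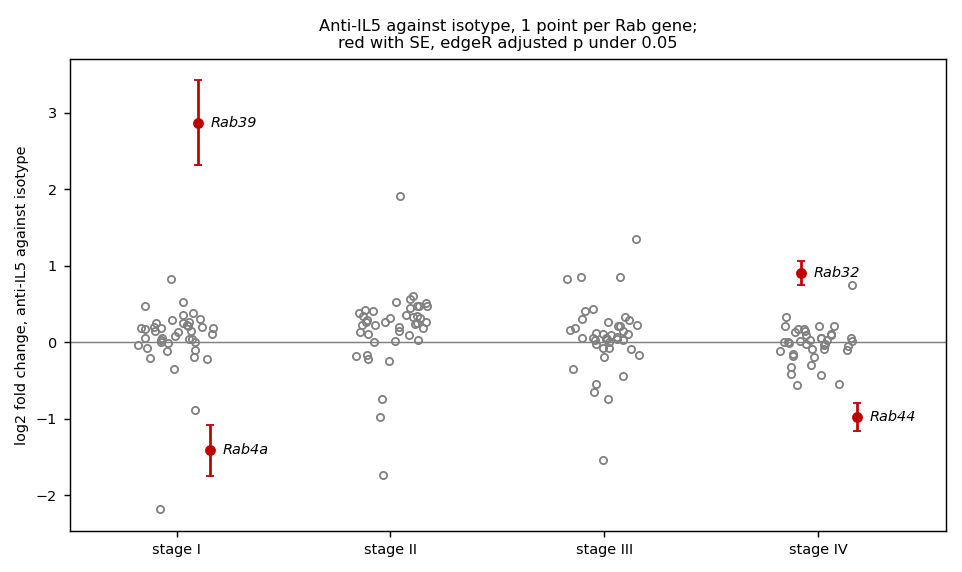
Log2 fold change of anti-IL5 against isotype (vertical axis) at each stage for members whose higher group averaged 1 CPM or more and whose groups each held more than 3 counts, 43, 42, 42 and 41 of them at stages I to IV; filled points were called by edgeR. Most members lie near 0, with Rab39 and Rab4a called at stage I and Rab32 and Rab44 at stage IV; Rab27b at stage II has 0 counts in 1 group and is not drawn.

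The difference of the anti-IL5 effect between neighbouring stages was tested in the same model. No Rab gene was called for stage II against I (0% of all genes called) or III against II (0% of all genes), where 2 members each had an unadjusted p under 0.05, nor by DESeq2 or limma-voom. For stage IV against III edgeR called 0 as well (0.638% of all genes, 0.541% higher and 0.0969% lower), with 4 at an unadjusted p under 0.05, limma-voom called 0, and DESeq2 called Rab27b. Rab44 (log2 -0.62 ± 0.26, edgeR adjusted p = 0.381) and Rab32 (log2 0.60 ± 0.23, adjusted p = 0.297) did not pass this test. A contrast of stage IV against I, added after the data had been seen, called 2 members, both lower (0.928% of all genes, 0.0727% higher and 0.856% lower). They were Rab44 (log2 -1.25 ± 0.26, edgeR adjusted p = 0.0179 [0.0798, isotype I-2/I-3/IV-2, anti-IL5 I-1/IV-2]) and Rab37 (log2 -0.95 ± 0.23, adjusted p = 0.047 [0.173, isotype I-1/I-2/IV-2/IV-3, anti-IL5 I-1/I-2/I-3/IV-1/IV-2/IV-3]). In Rab44 the anti-IL5 effect went from log2 0.27 ± 0.18 at stage I to log2 -0.98 ± 0.18 at stage IV, and in Rab37 from log2 0.52 ± 0.16 to log2 -0.43 ± 0.16.

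Among the genes whose proteins switch, carry and read out the Rabs, more rose than fell with maturation in each of the 5 lists. Over all genes 32.3% were called higher and 33.9% lower under isotype and 30.7% and 32.8% under anti-IL5. From stage I to IV under isotype and anti-IL5, 17 and 18 of 36 tested GEFs were higher and 3 and 3 lower. Of 31 GAPs of the TBC domain family 19 and 15 were higher and 5 and 4 lower. Of 33 effectors 18 and 14 were higher and 5 and 6 lower, and of 19 SNAREs and SNARE regulators, the fusion machinery that acts after a Rab has docked its vesicle, 13 and 12 were higher and 2 and 2 lower. The escort, prenylation and GDI list (7 genes) had 4 and 3 higher and 1 lower in each. The median log2 fold changes under isotype and anti-IL5 were 0.636 and 0.657 for GEFs, 0.646 and 0.437 for GAPs and 0.831 and 0.449 for effectors. Those of the SNARE list were 0.95 and 0.80 and those of the escort list 0.335 and 0.390, beside -0.045 and -0.058 over all genes.

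Sbf2, a GEF of Rab21, showed the largest GEF rise, from 0.491 ± 0.354 to 47.7 ± 23.6 CPM under isotype (log2 6.48 ± 0.63, edgeR adjusted p = 8.5e-09; anti-IL5 log2 6.55 ± 0.60, adjusted p = 5.61e-09). Dennd3, a GEF of Rab12, rose too (log2 4.18 ± 0.30; anti-IL5 log2 4.27 ± 0.30). Rin3, a GEF of the Rab5 family (log2 2.85 ± 0.18; anti-IL5 log2 2.65 ± 0.18), and Dennd5a (log2 2.77 ± 0.23; anti-IL5 log2 2.70 ± 0.23) rose as well. Dennd2d, also in the GEF list, fell in both treatments (log2 -0.78 ± 0.18 under isotype). The GAP genes Tbc1d8 (log2 3.47 ± 0.27; anti-IL5 log2 2.41 ± 0.26) and Tbc1d14, an autophagy regulator (log2 3.08 ± 0.31; anti-IL5 log2 2.87 ± 0.31), rose. Among the falls were Sgsm3 (log2 -3.43 ± 0.43; anti-IL5 log2 -3.47 ± 0.44) and Tbc1d7, a subunit of the tuberous sclerosis complex (log2 -2.36 ± 0.34; anti-IL5 log2 -1.73 ± 0.34).

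Chm, the escort protein that brings new Rabs to the prenylating enzyme, rose from 16.6 ± 1.87 to 91.7 ± 5.89 CPM under isotype (log2 2.47 ± 0.26, edgeR adjusted p = 4.14e-08; anti-IL5 log2 2.42 ± 0.26, adjusted p = 6.47e-08). Rabggtb, the catalytic subunit of that enzyme, fell (log2 -1.20 ± 0.17; anti-IL5 log2 -0.69 ± 0.17). The effectors Rab11fip1 (log2 3.09 ± 0.25; anti-IL5 log2 2.98 ± 0.25) and Rab11fip4 (log2 2.85 ± 0.48; anti-IL5 log2 3.26 ± 0.49), which bind Rab11, rose. Ehbp1l1, a Rab8 effector (log2 2.48 ± 0.19; anti-IL5 log2 1.84 ± 0.19), and Sytl1, a Rab27 effector (log2 2.38 ± 0.19; anti-IL5 log2 2.36 ± 0.19), rose in both treatments. Eea1, the tether recruited by Rab5, fell (log2 -0.92 ± 0.25; anti-IL5 log2 -1.08 ± 0.25). Of the SNARE genes Stx11, known from cytotoxic granule release, rose (log2 3.66 ± 0.29; anti-IL5 log2 2.42 ± 0.27). Stxbp3 (log2 2.73 ± 0.20; anti-IL5 log2 1.94 ± 0.19) and Snap23 (log2 2.13 ± 0.21; anti-IL5 log2 2.28 ± 0.21) rose too, and Stx3 fell (log2 -0.70 ± 0.17; anti-IL5 log2 -1.02 ± 0.18).

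Of the 126 machinery genes 10, 0, 3 and 1 were called between treatments at stages I, II, III and IV, beside 4.42%, 1.75%, 6.37% and 1.05% of all genes. Those at stage I included 2 GEFs higher and 1 lower, 3 GAPs higher and 1 lower, and 2 SNARE genes higher. Of the 33 effectors edgeR called 0, with 5 at an unadjusted p under 0.05 and 1 each called by DESeq2 and limma-voom. Evi5, a GAP that binds Rab11, was higher (log2 0.99 ± 0.18, edgeR adjusted p = 0.00229). Rabgap1l (log2 0.56 ± 0.15 [0.2, isotype I-2/I-3, anti-IL5 I-1/I-2/I-3]) and Tbc1d8 (log2 0.89 ± 0.26 [0.228, isotype I-2/I-3, anti-IL5 I-1/I-2]) were also higher. Of the SNARE genes Stxbp3 (log2 1.11 ± 0.20) and Stx11 (log2 1.35 ± 0.28 [0.0634, isotype I-2, anti-IL5 I-2]) were higher. So was Dennd1c, a GEF of Rab35 (log2 0.82 ± 0.19 [0.124, isotype I-2, anti-IL5 I-1/I-3]). Hps1, a subunit of the complex that activates Rab32 and Rab38, was lower, at 50.7 ± 7.21 against 78.3 ± 17.3 CPM (log2 -0.63 ± 0.16, edgeR adjusted p = 0.0273 [0.207, isotype I-2/I-3, anti-IL5 I-2/I-3]). At stage II edgeR called 0 of the 126 genes in the 5 lists, with 11 at an unadjusted p under 0.05, 3 called by DESeq2 and 0 by limma-voom. At stage III Sbf2 (log2 1.79 ± 0.49 [0.15, isotype III-1/III-3, anti-IL5 III-2/III-3]) and Rab11fip1 (log2 0.78 ± 0.23 [0.202, isotype III-1/III-3, anti-IL5 III-2/III-3]) were higher. Tbc1d2, a GAP of Rab7, was lower at stage III (log2 -0.66 ± 0.19 [0.183, isotype III-1/III-2/III-3, anti-IL5 III-2/III-3]). Tbc1d2 was also the only machinery gene called at stage IV, at 14.7 ± 0.298 against 29.9 ± 8.47 CPM (log2 -1.03 ± 0.20, edgeR adjusted p = 0.0066 [0.0737, isotype IV-2]).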

How the data were processed

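RNA of 22 sorted bone marrow libraries was turned into cDNA with SMART-Seq v4 (17 cycles) and Nextera XT libraries, per the labels' protocols. The deposited files hold whole-number read counts per gene made by the authors, aligned with STAR 2.6.1a to mm10 per the submitters' processing notes, which also name DESeq2; which tool counted the reads, on which annotation and with which strand setting, is not given in the sources used here. Reads without a feature (12.7% to 22.1% of those counted) and ambiguous reads (1.86% to 2.39%), listed on 2 closing lines, were left out. PCR duplicates could not be told from separate molecules, so intervals cover counting error only.

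Groups came from the labels. Counts were fitted with edgeR 4.0.16 in R 4.3.3 (TMM, filterByExpr, robust quasi-likelihood, 8 groups), and p-values were adjusted by Benjamini-Hochberg over 12387 genes for each contrast. No 2 libraries agreed within sampling noise. Alternatives were DESeq2 1.42.0, limma-voom (limma 3.58.1), upper-quartile scaling, no filter, each library left out, and replicate numbers as a block, plus library sizes without scaling factors, which was chosen after seeing the data. Replicate numbers were taken to pair libraries where every same-number pair of at least 3 had deviations from the group means correlated above 0.1. Among the comparisons made this held for isotype stages III and IV (0.124 to 0.208), from the numbers in the labels and the values. The fit was also run on counts simulated for anti-IL5 against isotype at stage III only, drawn independently with the spread estimated here. Known changes were given only to genes at 10 CPM or more. That run therefore cannot speak to stage II, to Rab genes near the floor or to pairing of replicates. Coordinates and exon lengths are from GENCODE vM21 (GRCm38), promoters from RefSeq (GRCm38.p6). The Rab genes and gene lists were chosen with earlier results of these data known. In each comparison the text names up to 6 called Rabs per direction at 10 CPM or more by fold change, up to 3 genes per machinery list and direction, and Rabs fixed by name; other members were named after their values were seen, and some fixed Rabs that did not pass a stage step are not printed. Some machinery genes that this rule selects are not reported here.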

Additional observations from a re-analysis of the deposited data

Results flagged for a closer look

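In 2 Rab genes the effect of anti-IL5 differed between stages I and IV by the test of that difference, in a contrast added after the data had been seen. For Rab44 the difference was -1.25 ± 0.26 on the log2 scale (edgeR adjusted p = 0.0179): Rab44 stood at 2070, 1522 and 1559 CPM under isotype and 2724, 1805 and 1685 CPM under anti-IL5 at stage I, and at 1724, 2029 and 1804 and 948, 880.1 and 996 CPM at stage IV. The call ended in 5 of 12 fits with 1 library left out (highest adjusted p 0.0798). For Rab37 the difference was -0.95 ± 0.23 (edgeR adjusted p = 0.047): it stood at 141 ± 19.7 and 202 ± 16.1 CPM at stage I, and at 325 ± 70.8 and 242 ± 8.46 CPM at stage IV. This call ended in 10 of 12 such fits (highest adjusted p 0.173), by limma-voom (0.0622) and under upper-quartile scaling (0.0749). No cause was tested.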

How the results depend on the processing

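No called result changed direction under any alternative run. Counts of called Rab genes moved by over 1.5 times in these cases, and the cause was not tested. For anti-IL5 against isotype at stage I, 1 was called without the filter; at stage II 2 by DESeq2 and 0 by limma-voom; at stage III 2 by DESeq2, 1 by limma-voom, 1 without the filter and 1 with the replicate block. From stage I to II under isotype limma-voom called 5. For the difference of the anti-IL5 effect, DESeq2 called 1 at stage IV against III, and limma-voom and upper-quartile scaling 1 each at stage IV against I. With 1 library left out, the antibody contrasts gave 1 to 2 calls at stage I, 0 to 4 at II, 0 to 1 at III and 2 to 2 at IV, and the added difference 0 to 2. Under isotype the range was 2 to 10 for stage I to II, 19 to 27 for II to III, 10 to 15 for III to IV and 33 to 38 for I to IV; under anti-IL5 it was 1 to 10, 15 to 22, 3 to 7 and 35 to 38. Among the comparisons made, the replicate numbers met the criterion for pairing only for isotype stages III and IV. They also met it for isotype stages I and III (0.12 to 0.2), which were not compared. Deviations of same-number libraries were still positively correlated in 30 of 30 pairs within an antibody (0.023 to 0.208, median 0.112, 16 over 0.1), against a median of -0.049 and 8 of 60 for other numbers, and by 0.013 to 0.338 between antibodies at a stage. Because deviations were taken from the group means, the values for other numbers depend on the same-number ones and are no independent reference. With 2 libraries a group, the deviations at stage II mirror each other. The replicate block gave 3 calls for anti-IL5 against isotype at stage I (Rab37 added, adjusted p = 0.0401) and 18 for stage III to IV under isotype, and at stage III added Rab39 (adjusted p = 0.0413); with it 214 results for single Rab genes kept their side of the threshold, 5 lost and 14 gained the call. Plain CPM moved 74 of 176 mean levels of single Rab genes by more than 1 SD. Upper-quartile scaling ended 22 such calls and DESeq2 10. Stage II, with 2 libraries a group, and Rab genes near 0.222 to 0.411 CPM, the level of 3 counts, are the least certain.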

Other observations

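Close relatives in the Rab family took unequal courses over maturation; the pairs below were chosen after their values had been seen, and no difference within a pair was tested. Rab27a rose from 87.9 ± 15.1 to 355 ± 69.8 CPM from isotype stage I to IV, while Rab27b went from 5.53 ± 0.529 CPM to 0 counts. In the fast recycling pair, Rab4b rose from 125 ± 20.4 to 241 ± 25.8 CPM and Rab4a fell from 9.25 ± 0.744 to 4.09 ± 0.823 CPM. Of the early endosome relatives, Rab22a rose from 33.6 ± 1.93 to 81.4 ± 6.51 CPM and Rab31 was at 80.2 ± 10.0 and 63 ± 4.31 CPM. The pair Rab32 and Rab38 differed as well: Rab32 was at 122 ± 7.99 and 105 ± 18.6 CPM and Rab38 went from 20.7 ± 3.3 CPM to 2 counts in all. Under anti-IL5, Rab4b rose too (log2 0.81 ± 0.18), with Rab4a at log2 -0.17 ± 0.34.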
